A study of Homo sapiens with 4 samples.

Results

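The genes described carry an MRPL (large subunit) or MRPS (small subunit) symbol, a naming used for proteins of the mitochondrial ribosome. The symbol alone does not place a protein in that ribosome. The genes were measured in MDA-MB-468 breast cancer cells depleted of SASH1. They were chosen by name alone, as protein-coding genes of GENCODE release 29 on hg38 whose symbol begins with MRPL or MRPS and a digit. That gave 77 of the 26518 Ensembl genes in the deposited table, 48 with an MRPL and 29 with an MRPS symbol. MDA-MB-468 is an established human line from a triple-negative breast tumour. SASH1-depleted cells (shSASH1, 2 libraries) carried a lentiviral pGIPZ hairpin that targets the mRNA of the scaffold protein SASH1, and control cells (shControl, 2 libraries) carried the corresponding pGIPZ control. Both were made into stable puromycin-selected clones and grown in the same serum-containing medium, so viral transduction and drug selection are common to all 4 libraries. Integration sites and clonal history may differ between the groups and cannot be told apart from the hairpin. The labels give neither the number of hairpins nor of clones, and do not say whether replicate libraries came from independent cultures, so a p-value here reflects only how far these 4 samples scatter, which may be technical scatter. Expression was measured by RNA-seq and given as TPM, a transcript level scaled for gene length and for each library's total. Because this is bulk RNA, fewer cells of a type and less RNA per cell cannot be told apart.

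Mitochondria translate the few proteins encoded in their own DNA, all of them subunits of the respiratory chain and ATP synthase, on a dedicated ribosome. Its RNAs are transcribed inside the organelle, whereas every one of its proteins is encoded in the nucleus, made in the cytosol and imported. Some of these proteins descend from bacterial ribosomal proteins, and others were added in the mitochondrial lineage. The small subunit decodes the messenger RNA and the large subunit joins the amino acids.

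SASH1 itself was lower in both knockdown libraries. It reached 3.65 and 4.01 TPM in shSASH1, against 14.99 and 13.0 TPM in shControl, a log2 change of -1.63 ± 0.13 (SE; limma adjusted p = 0.00391). Here and below, a log2 change is the difference of mean log2(TPM + 1), shSASH1 minus shControl, its error is limma's standard error, and a gene is called when its Benjamini-Hochberg adjusted p over all 14458 genes tested is at most 0.05. Rebuilt read totals were 24383873 and 19566651 in shSASH1 and 20806829 and 24204187 in shControl. The median within-group SD over the members was 0.0728 log2 units in shSASH1 and 0.0367 in shControl, so the knockdown pair was the more variable. All 6 epithelial markers were detected, with summed levels of 4563 to 5487 TPM in shSASH1 and 5747 to 5987 TPM in shControl. Of the receptors that define the triple-negative class, PGR was at or near 0, ESR1 was 2.79 and 3.64 TPM in shSASH1 against 2.58 and 2.29 TPM in shControl, and ERBB2 was 28.98 and 38.3 TPM in shSASH1 against 68.4 and 70.3 TPM in shControl. COL1A1 (of 5 fibroblast markers), CD14 (of 4 immune markers) and PECAM1 (of 3 endothelial markers) were the markers of other cell types that reached 1 TPM in any library. The fibroblast list summed to 9.18 to 11.0 TPM in shSASH1 and 6.34 to 7.12 TPM in shControl, the immune list to 33.4 to 96.6 TPM in shSASH1 and 33.3 to 40.0 TPM in shControl, and the endothelial list to 1.17 to 1.57 TPM in shSASH1 and 2.44 to 2.61 TPM in shControl. COL1A2 was at 0 in every library and PTPRC was at most 0.104 TPM. The part of these marker levels in the results was not tested.

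Mitoribosomal protein mRNAs shifted by small amounts in both directions, with more members lower than higher in shSASH1. Of the 77 members, 76 averaged at least 1 TPM and entered the test, and the other, MRPL53, was listed at 0 in all 4 libraries. In shSASH1, 19 members (25%) were called lower, 9 (11.8%) were called higher and 48 were not called. Over all genes tested, 13.3% were called lower and 18.8% higher. The members' median log2 change was -0.16, with the middle of the distribution running from -0.30 to 0.10, against a median of 0.06 over all genes tested. Counted without a test, the 2 shSASH1 libraries lay below both shControl libraries for 45 members (59.2%) and above both for 21 (27.6%), where the same held for 32.3% and 41.3% of all genes tested. The groups did not overlap for any of the 28 called members. With 2 libraries per group a call favours such genes, so this adds little to it. Changes were modest in size. Among the members called, the means in shSASH1 ranged from 0.560 to 2.05 times those in shControl. The calls did not survive leaving out either shControl library, where the fit's scatter came from the more variable shSASH1 pair alone. The median log2 change of MRPL genes was then -0.21 without replicate 1 and -0.22 without replicate 2. Without the first shSASH1 library, where the scatter came from the tighter shControl pair, that median was -0.24. Without limma's variance trend 12 members were called lower and 6 higher. Quantile normalization gave 25 lower and 6 higher, a length and GC correction 20 and 5, and voom on rebuilt reads 25 and 7, where voom called 19.4% of all genes lower and 17.5% higher. The length and GC correction called 15.9% of all genes lower and 16.2% higher. Such shares are not given for quantile normalization or for the fit without the variance trend. The second shSASH1 library was below the first for 55 of 76 members, against 6117 of the 14458 genes tested. The median of second minus first was -0.084 log2 units over members and 0.046 over all genes tested. The members thus differed between the shSASH1 libraries in the opposite direction to genes in general.

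**Figure D1:**
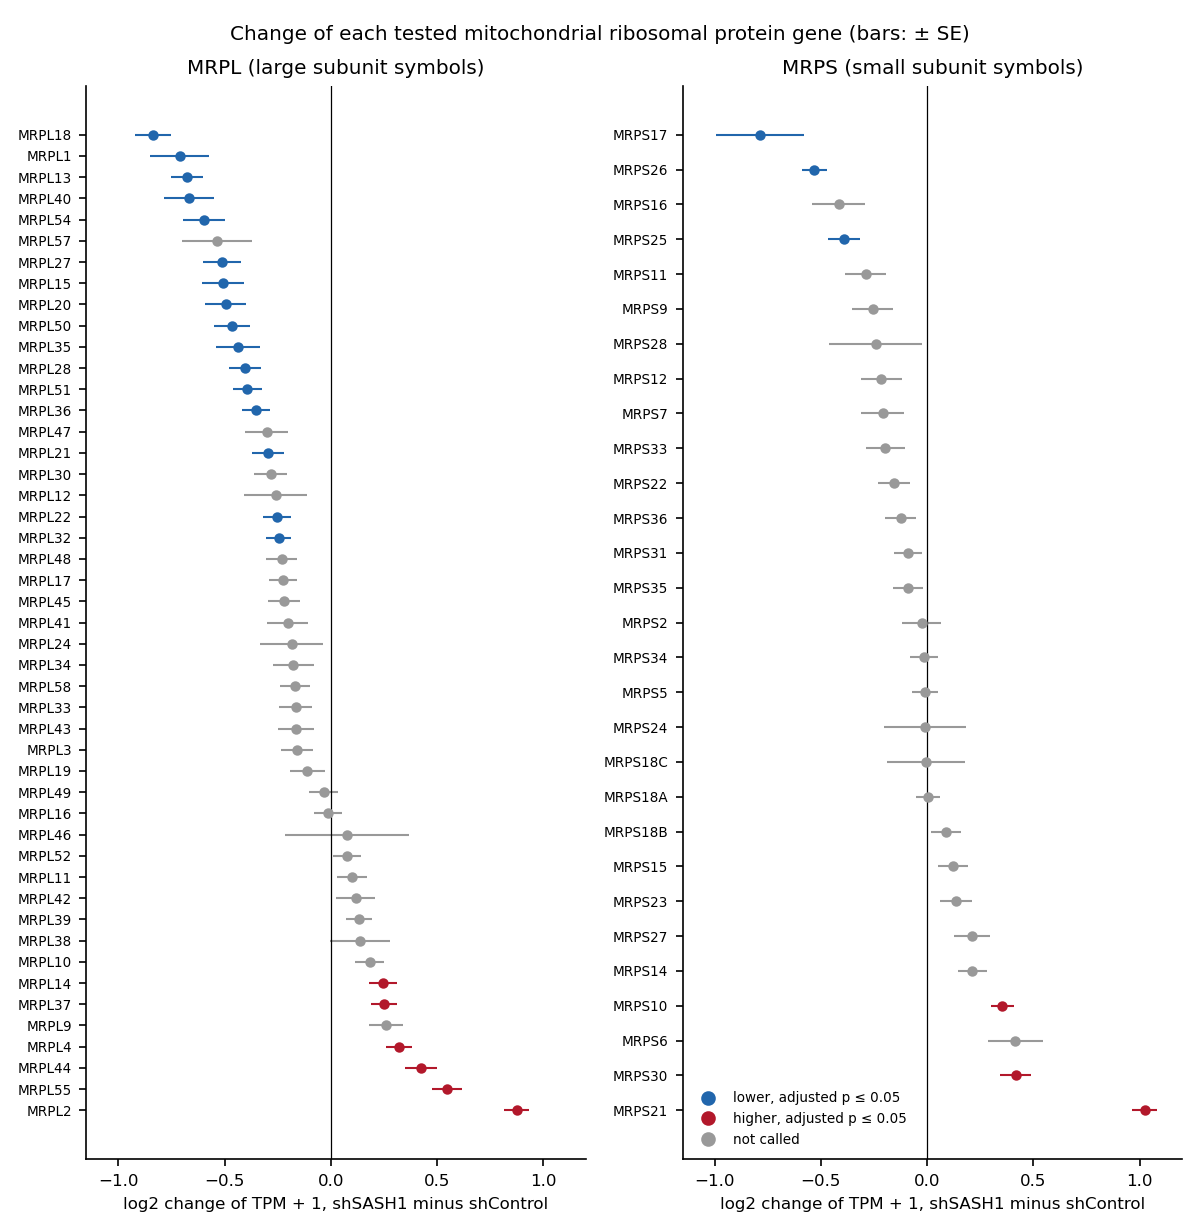
Log2 change of each tested member in shSASH1 relative to shControl (x axis, difference of mean log2(TPM + 1)), with limma's standard error as bars and the members sorted by their change within each subunit. Blue (lower) and red (higher) points are the 28 called members, grey ones were not called, and called changes run from MRPS21 at 1.02 to MRPL18 at -0.84.

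Large-subunit genes held most of the lower calls. Of 47 tested MRPL genes, 16 (34.0%) were called lower and 6 (12.8%) higher, with a median log2 change of -0.20. Of 29 MRPS genes, 3 (10.3%) were called lower and 3 (10.3%) higher, with a median of -0.03. The lower share of the small subunit was thus near that of all genes tested, and its median was below theirs. The medians differed by -0.18 log2 units, large minus small, and this difference was not tested. In single libraries, the median deviation of MRPL genes from the shControl mean was -0.18 and -0.24 in shSASH1, against -0.01 and 0.01 in shControl. For MRPS genes it was -0.06 and -0.08 in shSASH1, against -0.01 and 0.01 in shControl. By this measure both shSASH1 libraries lay below both shControl libraries for either subunit, further so for the large one. The reference is the mean of the shControl pair itself, so the shControl values mirror each other around 0 by construction. By median level the groups overlapped for the large subunit, at 67.1 and 67.7 TPM in shSASH1 and 68.9 and 67.6 TPM in shControl. They did not for the small subunit, at 37.7 and 38.5 TPM in shSASH1 against 39.9 and 39.5 TPM in shControl. The summed level of the large subunit was 4031 and 3770 TPM in shSASH1, against 4249 and 4262 TPM in shControl. The small subunit summed to 2454 and 2325 TPM in shSASH1, against 2380 and 2449 TPM in shControl, so the groups overlapped. The ratio of these sums, large over small, was 1.64 and 1.62 in shSASH1 and 1.79 and 1.74 in shControl. The median level of the large subunit, in contrast, exceeded that of the small one by 0.81 and 0.80 log2 units in shSASH1 and by 0.77 and 0.76 in shControl, the other direction. The difference in median change was -0.10 when MRPS30 and MRPS18A, whose proteins sit in the large subunit despite their names, were counted there, and -0.02 when each gene was set against its chromosomal neighbourhood, described below.

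**Figure D2:**
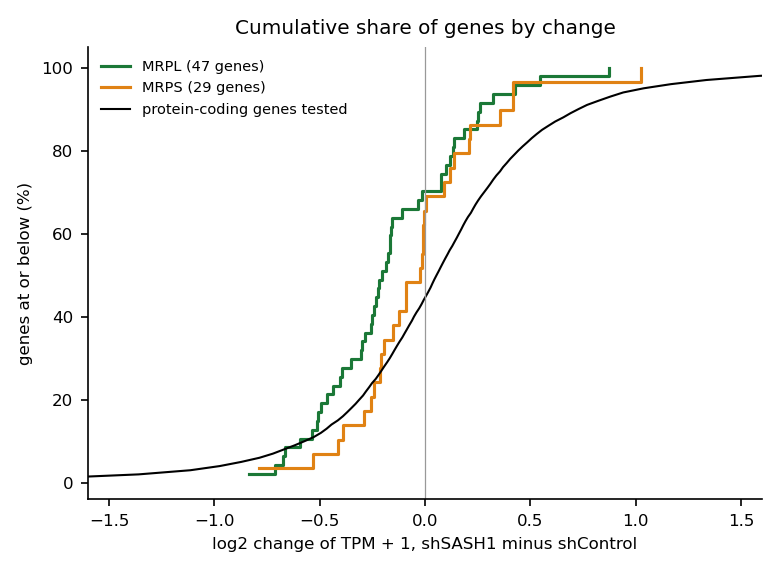
Cumulative share (y axis, percent) of MRPL genes, MRPS genes and all protein-coding genes tested at or below a given log2 change (x axis, shSASH1 minus shControl). The medians are -0.20 for MRPL genes and -0.03 for MRPS genes.

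Members were also split by whether their protein has a homologue among bacterial ribosomal proteins, called a bacterial homologue here and below. Among the 29 large-subunit genes whose protein has a bacterial homologue, 12 were called lower and 4 higher, with a median log2 change of -0.24. Of the 18 tested genes for large-subunit proteins with no bacterial homologue, 4 were called lower and 2 higher, with a median of -0.16. In the small subunit, 1 of 18 genes with a bacterial homologue was called lower and 2 higher (median -0.01), and 2 of 11 without one were called lower and 1 higher (median -0.09). These splits are descriptions, beside 13.3% called lower and 18.8% higher over all genes tested, and their differences were not tested.

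MRPL18 fell the most. It encodes the mitochondrial relative of a bacterial large-subunit protein that binds ribosomal RNA, and lies at chr6:159789812-159798436 (plus strand). It measured 145 and 167 TPM in shSASH1, against 276 and 281 TPM in shControl. The groups did not overlap, and the means were 156 ± 15.5 and 278 ± 3.74 TPM (SD, n = 2 each), a log2 change of -0.84 ± 0.08 (limma adjusted p = 0.00571). MRPL1, part of the mobile stalk beside the tRNA exit, reached 47.3 and 36.1 TPM in shSASH1, against 68.9 and 67.6 TPM in shControl (log2 change -0.71 ± 0.14, limma adjusted p = 0.0237). MRPL13, whose bacterial counterpart joins the subunit early in assembly, was at 26.8 and 25.2 TPM in shSASH1, against 41.0 and 43.1 TPM in shControl (-0.68 ± 0.08, adjusted p = 0.00681). Both genes had no overlap of the groups, and the shSASH1 pair of MRPL1 was the more scattered. MRPL40, a gene of the DiGeorge syndrome region on chromosome 22, had 36.3 and 30.5 TPM in shSASH1, against 50.2 and 56.8 TPM in shControl (-0.67 ± 0.12, adjusted p = 0.0183). MRPL54, a protein without a bacterial homologue, had 37.4 and 35.7 TPM in shSASH1, against 60.2 and 51.5 TPM in shControl (-0.59 ± 0.10, adjusted p = 0.0161). In both, every knockdown library was below every control library.

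Further large-subunit genes fell by less. MRPL27, whose bacterial counterpart reaches into the peptidyl transferase centre, was at 22.7 and 20.4 TPM in shSASH1, against 30.4 and 31.8 TPM in shControl (-0.51 ± 0.09, adjusted p = 0.0183). MRPL15 had 91.5 and 77.0 TPM in shSASH1, against 119 and 120.5 TPM in shControl (-0.51 ± 0.10, adjusted p = 0.0230). MRPL51, which has no bacterial homologue and is among the more abundant members, had 153 and 146 TPM in shSASH1, against 189 and 205 TPM in shControl (-0.39 ± 0.07, adjusted p = 0.0176). Those called genes, too, were lower in each knockdown library. Log2 changes were -0.50 for MRPL20, -0.46 for MRPL50, -0.44 for MRPL35 and -0.40 for MRPL28, with limma adjusted p between 0.0198 and 0.0388. The remaining large-subunit calls were MRPL36, MRPL21, MRPL22 and MRPL32, named because they complete the count, at -0.35, -0.30, -0.25 and -0.24. MRPL57 was at 48.7 and 36.3 TPM in shSASH1 and 57.3 and 65.9 TPM in shControl and missed the threshold (-0.54 ± 0.16, adjusted p = 0.0676), although its change was larger than those of most genes called.

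The small-subunit genes called lower were MRPS17, MRPS26 and MRPS25. MRPS26, a protein with no bacterial homologue, had 244 and 229 TPM in shSASH1, against 338 and 345 TPM in shControl (-0.53 ± 0.06, adjusted p = 0.00702). MRPS25, in which mutations cause a mitochondrial encephalomyopathy, had 21.5 and 21.1 TPM in shSASH1, against 28.5 and 28.0 TPM in shControl (-0.39 ± 0.07, adjusted p = 0.0215). MRPS17, the relative of a bacterial protein that binds small-subunit ribosomal RNA, had 33.8 and 22.004 TPM in shSASH1, against 48.1 and 47.4 TPM in shControl (-0.79 ± 0.21, adjusted p = 0.0492). The groups did not overlap for these genes, but the MRPS17 call was close to the threshold and was lost in 4 of 10 other settings that kept all libraries, with adjusted p up to 0.0827. All coding bases of MRPS17 also lie in exons of the overlapping annotated gene AC092647.5, so its value may include reads counted for either. MRPS16, mutated in another mitochondrial disease, was at 139 and 110.0 TPM in shSASH1 and 163 and 168 TPM in shControl and was not called (-0.41 ± 0.12, adjusted p = 0.0655).

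**Figure D3:**
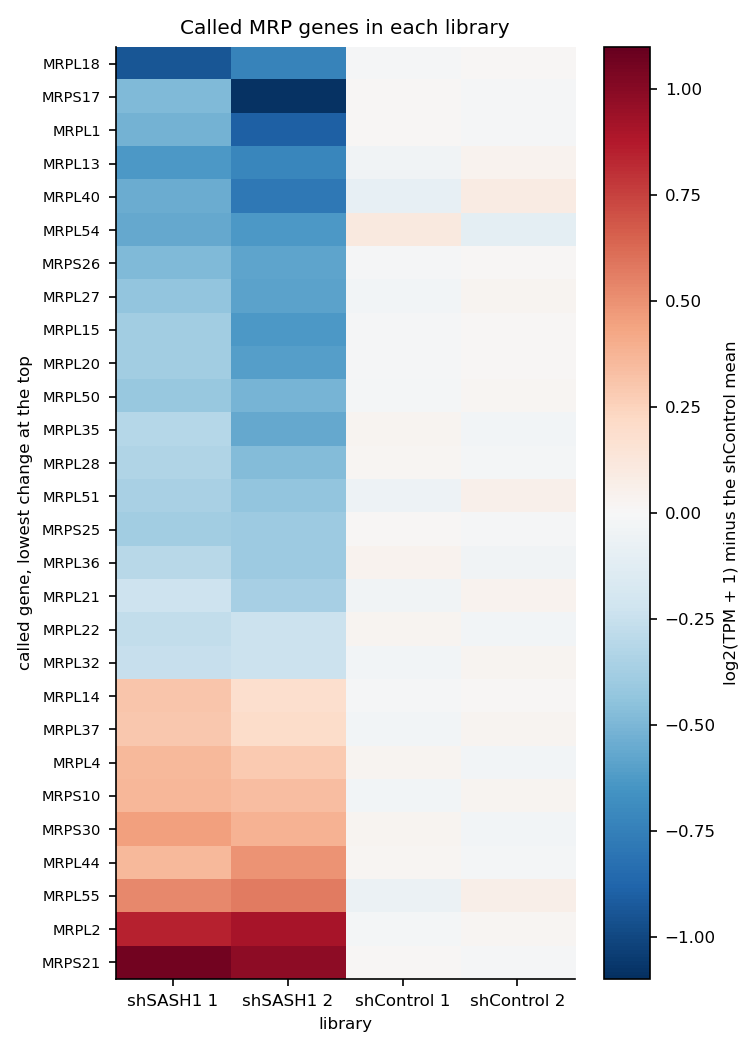
Deviation of each called member from its shControl mean in every library (log2(TPM + 1), colour scale), with the shSASH1 libraries left of the shControl libraries. Each of the 19 lower and 9 higher members has both shSASH1 libraries on one side of both shControl libraries.

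Against the general shift, 2 members were markedly higher. MRPS21, the relative of a small bacterial protein of the subunit's platform, lies at chr1:150293720-150308979 (plus strand) and had 199 and 188 TPM in shSASH1, against 95.6 and 93.6 TPM in shControl. Its means were 194 ± 7.58 and 94.6 ± 1.38 TPM (SD, n = 2 each), a log2 change of 1.02 ± 0.06 (limma adjusted p = 0.00246). MRPL2, whose bacterial counterpart flanks the peptidyl transferase centre, lies at chr6:43054029-43059806 (minus strand) and had 152 and 158 TPM in shSASH1, against 82.6 and 85.4 TPM in shControl. Its means were 155 ± 4.36 and 84.0 ± 1.97 TPM (SD, n = 2 each), a log2 change of 0.88 ± 0.06 (limma adjusted p = 0.00299). For both genes the difference far exceeded the gap between libraries of a group. GENCODE lists 8 pseudogenes named after MRPS21 and 1 named after MRPL2, and the assignment of reads from such copies is not given in the sources used here.

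The other higher members moved by less than 0.6 log2 units. MRPL55, a large-subunit protein with a bacterial homologue, had 86.5 and 89.2 TPM in shSASH1, against 57.3 and 62.4 TPM in shControl (0.55 ± 0.07, adjusted p = 0.00897). MRPL44, a protein with a ribonuclease III fold that is mutated in infantile cardiomyopathy, had 62.0 and 68.2 TPM in shSASH1, against 49.0 and 47.3 TPM in shControl (0.43 ± 0.08, adjusted p = 0.0187). MRPS30, located in the large subunit, had 42.4 and 40.4 TPM in shSASH1, against 31.5 and 30.03 TPM in shControl (0.42 ± 0.07, adjusted p = 0.0176). None of these genes showed overlap between the groups. MRPS10, whose bacterial counterpart is a protein of the small subunit's head, had 211 and 207 TPM in shSASH1, against 160.4 and 167 TPM in shControl (0.36 ± 0.05, adjusted p = 0.0135). The changes were 0.32 for MRPL4, 0.25 for MRPL37 and 0.25 for MRPL14, which binds the assembly factor MALSU1, with adjusted p of 0.0226, 0.0415 and 0.0497. Of 10 other settings that kept all libraries, MRPL14 missed the threshold in 9, MRPL37 in 8 and MRPL4 in 4. MRPS6 was at 35.5 and 45.0 TPM in shSASH1 and 29.9 and 29.5 TPM in shControl and was not called (0.42 ± 0.13, adjusted p = 0.0711).

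Of the 3 most abundant members of each subunit, MRPS26 was called lower and MRPL14 higher, as above, and the others were not called. MRPS34 had 328 and 302 TPM in shSASH1 and 311 and 326 TPM in shControl (log2 change -0.01 ± 0.07, adjusted p = 0.888). MRPS18B had 285 and 312 TPM in shSASH1 and 273 and 286 TPM in shControl (0.09 ± 0.07, adjusted p = 0.363). The groups overlapped for both genes. MRPL3 had 240.3 and 215 TPM in shSASH1 and 250 and 258 TPM in shControl (-0.16 ± 0.07, adjusted p = 0.168), and MRPL41 had 236 and 202 TPM in shSASH1 and 260.4 and 242 TPM in shControl (-0.20 ± 0.10, adjusted p = 0.169). Both were lower in shSASH1 by less than the test resolves, and both were called lower without the first shSASH1 library (adjusted p = 0.0191 and 0.0270). Among the smallest changes were those of MRPL16 (-0.01), MRPL49 (-0.03), MRPS18A (0.01) and MRPS18C (-0.01). The human genome has a trio of MRPS18 genes, related copies of a single bacterial gene, whose levels in shSASH1 were 72.9 and 71.4 TPM for MRPS18A and 2.10 and 2.47 TPM for MRPS18C, against 71.3 and 72.4 TPM and 2.14 and 2.45 TPM in shControl. None of the MRPS18 genes was called.

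Where a member sits in the genome tracked its change more closely than its length, base composition or level. For each gene the median log2 change of the other tested genes in its 20 Mb window was taken as the neighbourhood. Across the 76 members, the change correlated with the neighbourhood median with Pearson's r = 0.54 and Spearman's rho = 0.45. Pearson's r was 0.14 with exon length, 0.02 with GC percent and 0.05 with mean level. These are descriptions across genes that share libraries, and genes are not independent replicates. All 9 higher members lay in windows with a positive median, whereas 8 of the 19 lower members lay in windows with a negative one. Over all members, 52 of 76 lay in windows of positive median, yet 57 of 76 were below their own window's median.

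**Figure D4:**
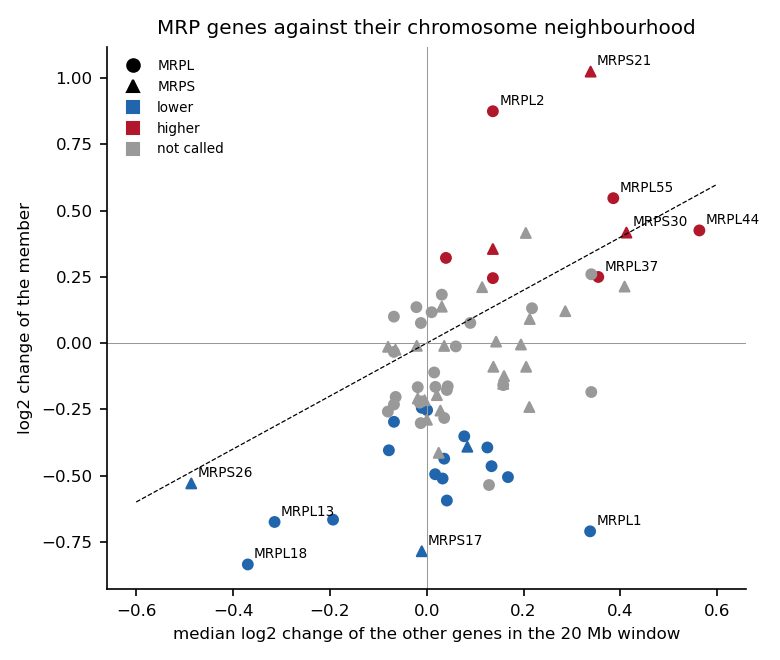
Log2 change of each member (y axis) against the median log2 change of the other tested genes in its 20 Mb window (x axis), with the line of equality dashed. Circles are MRPL and triangles MRPS genes, blue called lower, red higher and grey not called. MRPS26 and MRPL44 lie near the line, and MRPL18, MRPL1, MRPS21 and MRPL2 lie well off it.

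Subtracting the window median left a different set of calls. Of the 19 lower members 12 were still called lower and of the 9 higher members 2, MRPS21 and MRPL2, were still called higher, and over all genes 12% were then called lower and 13.2% higher. The centred log2 changes were 0.70 for MRPS21 (adjusted p = 0.00616) and 0.74 for MRPL2 (adjusted p = 0.00526). MRPL44 was at -0.12 after centring, MRPS30 at -0.04 and MRPL37 at -0.12, all of opposite sign to their uncentred changes and none called. Of the lower members, MRPS26 was at -0.03 (adjusted p = 0.746), in a window on chromosome 20 with a median of -0.49. MRPL13 was at -0.33 (adjusted p = 0.0922) and MRPL40 at -0.42 (adjusted p = 0.0540), and MRPS17, MRPL35, MRPL21 and MRPL32 were not called either. MRPL1, in a window with a median of 0.34, was at -1.04 (adjusted p = 0.0210), further from 0 than before. MRPL18 kept its call at -0.46 (adjusted p = 0.0274), in a window with a median of -0.37. After centring, 14 members were called lower in all, and the medians were -0.21 for MRPL genes and -0.19 for MRPS genes. What moves genes of a window together was not tested.

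Neighbouring members nevertheless differed. On the short arm of chromosome 6, MRPL2, MRPS10, MRPL14 and MRPS18A share a window with a median of 0.14, and changed by 0.88, 0.36, 0.25 and 0.01. On chromosome 19, MRPL54 and MRPL4 share a window with a median of 0.04 and changed in opposite directions, by -0.59 and 0.32. On chromosome 8, 2 of 3 tested members, MRPL13 and MRPL15, were called lower, in windows with medians of -0.31 and 0.17, and MRPL15 kept its call after centring.

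Some members start close to the start of a gene on the other strand. A head-to-head protein-coding partner, with its start within 1000 bases, was found for 19 of the 77 members. In 18 combinations both genes were tested, with MRPS11 and MRPL46, which face each other, entered from both sides. Of these, 8 held a called member, lower in each case, where 13.3% of all genes tested were called lower and 18.8% higher. In 2 of the 8 the partner was called as well, also lower. The first is TCP1, a subunit of the cytosolic chaperonin, which starts 63 bases from MRPL18 and had 217 and 233 TPM in shSASH1, against 391 and 391 TPM in shControl (-0.80 ± 0.06, adjusted p = 0.00340). MRPL18 and TCP1 thus changed by close to the same amount. The other is NDUFS6, a complex I subunit 34 bases from MRPL36, with 247 and 245 TPM in shSASH1, against 292 and 302 TPM in shControl (-0.27 ± 0.05, adjusted p = 0.0250). MITD1, 21 bases from MRPL30, was higher, with 28.0 and 29.8 TPM in shSASH1, against 21.4 and 22.3 TPM in shControl (0.38 ± 0.08, adjusted p = 0.0272), whereas MRPL30 itself was not called (-0.28 ± 0.08, adjusted p = 0.0528). Over the 18 combinations, Pearson's r between the changes of member and partner was 0.10 and Spearman's rho was -0.03, a description without a test.

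Member promoters are shown because members that changed in opposite directions carried the same short motifs. The sequences are from RefSeq on GRCh38.p14, from 250 bases before to 50 bases after the first listed start of each gene, 5′ to 3′ on the gene's strand. MRPL18 is at chr6:159789562-159789861 (plus), MRPL27 at chr17:50373135-50373434 (minus), MRPL22 at chr5:154940823-154941122 (plus), MRPS10 at chr6:42217812-42218111 (minus) and MRPS21 at chr1:150293611-150293910 (plus). The first trio was called lower and the last pair higher in shSASH1. Capitals mark the searched letters of the ETS core (CGGAAG or, on the other strand, CTTCCG), the YY1 motif (AAGATGGCG) and the E-box (CACGTG).
MRPL18: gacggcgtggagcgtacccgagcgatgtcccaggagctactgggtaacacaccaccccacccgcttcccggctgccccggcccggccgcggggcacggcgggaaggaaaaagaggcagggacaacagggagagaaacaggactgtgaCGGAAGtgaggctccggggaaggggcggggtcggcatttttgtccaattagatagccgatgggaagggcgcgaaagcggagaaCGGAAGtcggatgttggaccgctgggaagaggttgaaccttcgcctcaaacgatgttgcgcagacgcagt
MRPL27: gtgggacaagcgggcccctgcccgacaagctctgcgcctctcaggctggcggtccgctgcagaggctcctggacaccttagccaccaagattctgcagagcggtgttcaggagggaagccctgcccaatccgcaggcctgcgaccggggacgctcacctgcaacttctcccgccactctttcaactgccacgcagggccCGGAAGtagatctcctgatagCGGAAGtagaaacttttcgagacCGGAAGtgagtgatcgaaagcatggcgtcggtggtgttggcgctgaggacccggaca
MRPL22: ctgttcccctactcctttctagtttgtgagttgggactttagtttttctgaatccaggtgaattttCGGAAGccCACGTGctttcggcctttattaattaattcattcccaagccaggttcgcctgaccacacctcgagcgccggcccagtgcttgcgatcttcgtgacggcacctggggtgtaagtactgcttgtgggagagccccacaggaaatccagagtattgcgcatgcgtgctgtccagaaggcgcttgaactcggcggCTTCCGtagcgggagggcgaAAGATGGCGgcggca
MRPS10: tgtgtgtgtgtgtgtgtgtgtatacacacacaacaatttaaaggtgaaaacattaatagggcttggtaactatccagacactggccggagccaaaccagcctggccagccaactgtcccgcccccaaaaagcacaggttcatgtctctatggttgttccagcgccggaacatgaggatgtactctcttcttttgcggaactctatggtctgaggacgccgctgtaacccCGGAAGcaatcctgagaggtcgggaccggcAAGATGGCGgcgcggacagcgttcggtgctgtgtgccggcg
MRPS21: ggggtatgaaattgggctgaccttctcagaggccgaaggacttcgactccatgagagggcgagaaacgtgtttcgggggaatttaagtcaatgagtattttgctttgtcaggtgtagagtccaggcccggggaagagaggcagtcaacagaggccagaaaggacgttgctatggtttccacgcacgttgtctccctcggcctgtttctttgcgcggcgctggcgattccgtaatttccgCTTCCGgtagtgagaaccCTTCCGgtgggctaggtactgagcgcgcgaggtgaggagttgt

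Counting from the start, with the first base of each match given, the ETS letters began at -103 and -20 in MRPL18 and at -51, -30 and -7 in MRPL27. They began at -21 in MRPS10, and at -11 and 8 in MRPS21 on the other strand. MRPL22 held them at -184 and, on the other strand, at 16, an E-box at -176 and the YY1 letters at 36, and MRPS10 held the YY1 letters at 10. Promoters were found for 69 of the 77 members, and both strands were searched. MRPL2, MRPL10, MRPL13, MRPL15, MRPL21, MRPL35, MRPS28 and MRPS36 had no entry. The ETS core was present in 53.6% of member promoters, against 32.9% of 9906 promoters of tested protein-coding genes and 19.9% of all 27305 promoters of that length. The YY1 letters were present in 18.8% of member promoters, against 3.97% and 1.85%. The NRF1 motif (GCGCA and GCGC with any base between them) was in 11.6% of member promoters and 11.6% and 6.28% of those sets, the E-box in 8.70%, 9.88% and 7.43%, and the GC box (GGGCGG) in 60.9%, 69.9% and 44.6%. The median GC content was 60.3% in member promoters and 65.3% in those of tested protein-coding genes. Among members with a promoter, the ETS core was in 9 of 15 called lower, 3 of 8 called higher and 24 of 45 not called, and the YY1 letters were in 4 of 15, 2 of 8 and 7 of 45. A match is a description of the letters and not a binding site. The mRNA of YY1, a zinc finger factor, was higher, with 87.7 and 98.9 TPM in shSASH1, against 63.2 and 63.6 TPM in shControl (0.55 ± 0.08, adjusted p = 0.0117). GABPA, an ETS factor of mitochondrial gene promoters, had 40.9 and 51.7 TPM in shSASH1 and 41.2 and 39.7 TPM in shControl and was not called (0.18, adjusted p = 0.317), nor was NRF1, with 20.4 and 20.8 TPM in shSASH1 and 22.02 and 22.1 TPM in shControl (-0.09, adjusted p = 0.382).

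Members at the lowest levels were mostly those that overlap other annotated genes. Of the 77 members, 50 share no coding base with exons of another gene and 8 share more than 50% of them. Of the 6 members with a mean under 5 TPM, 5 were among those 8: MRPL53 (all coding bases shared, with CCDC142), MRPL38 (94.1%), MRPS24 (92.2%, with the read-through gene URGCP-MRPS24), MRPL46 (64.0%) and MRPS28 (53.0%). The other was MRPS18C, which shares 45.1% with ABRAXAS1. The remaining members sharing over that fraction were MRPS17, MRPL12 (96.0%) and MRPL30 (95.3%), with MRPL12, the stalk protein that also binds the mitochondrial RNA polymerase, at 8.46 and 10.8 TPM in shSASH1 and 11.2 and 12.1 TPM in shControl. The counting of reads from overlapping genes is not given in the sources used here. A level near 0, such as that of MRPL53, is therefore only what the table lists. MRPS28 rested on about 11 and 12 rebuilt reads in shSASH1 and 15 and 19 in shControl, too few to resolve a difference. Without the 8 overlapping members, 18 were called lower and 9 higher. The cause of the low levels was not tested.

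**Figure D5:**
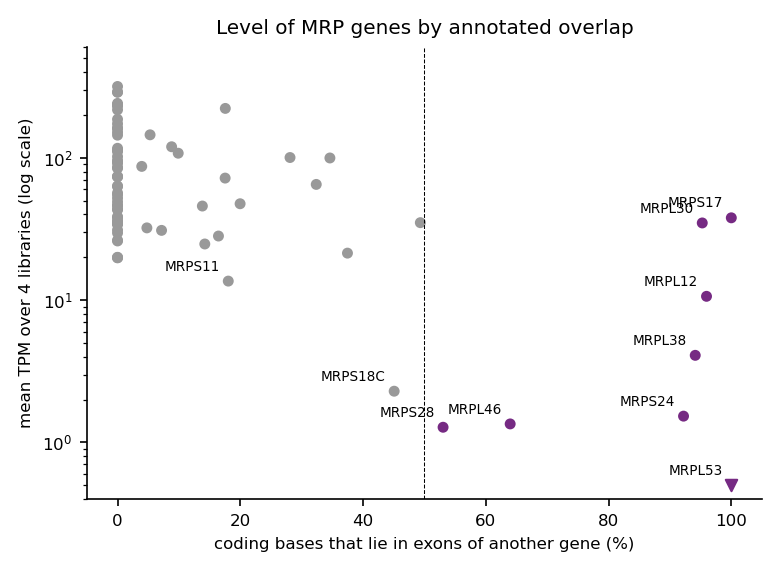
Mean level over the 4 libraries (y axis, TPM, log scale) of each member against the percent of its coding bases that lie in exons of another annotated gene (x axis), with MRPL53, listed at 0, as a triangle at the foot of the axis and members over 50% in purple. Of the 6 members under 5 TPM, 5 share more than 50% of their coding bases.

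Other genes of mitochondrial translation held calls in both directions, counted over lists chosen with earlier results known. Over all genes tested, 13.3% were called lower and 18.8% higher. These shares were 0% and 20% for mitoribosomal proteins with other names, 7.1% and 0% for translation factors, and 8.3% and 4.2% for assembly factors. They were 25% and 5% for the synthetase list. The translation and assembly factors were thus called less often than genes in general. Among 5 tested mitoribosomal proteins with names of another form, DAP3, a GTP-binding protein of the small subunit, was the called gene, with 197 and 190 TPM in shSASH1, against 137 and 138 TPM in shControl (0.49 ± 0.05, adjusted p = 0.00669). After window centring it was at 0.17 (adjusted p = 0.111). The list's median change was 0.01. Of 14 translation factors, 1 was called, MTFMT, which formylates the initiator tRNA, at 9.81 and 11.9 TPM in shSASH1, against 18.1 and 16.5 TPM in shControl (-0.63 ± 0.13, adjusted p = 0.0266; list median -0.11). Of 24 assembly and rRNA modification factors, the pseudouridine synthases TRUB2 (-0.70) and RPUSD3 (-0.49) were called lower and the rRNA methyltransferase NSUN4 (0.66) was called higher, with a list median of -0.03. NSUN4 was at 0.29 after window centring and not called (adjusted p = 0.0632). Of 20 genes for mitochondrial aminoacyl-tRNA synthetases and the glutamyl-tRNA amidotransferase, 5 were called lower, among them QRSL1 (-0.62), FARS2 (-0.51) and WARS2 (-0.49), and 1 higher, PARS2 (0.42), with a list median of -0.23. After window centring QRSL1 was at -0.25 (adjusted p = 0.0664), WARS2 at -0.32 (adjusted p = 0.0780) and PARS2 at 0.06 (adjusted p = 0.647), none of them called. The mitochondrial ribosomal RNAs were not analysed here.

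Cytosolic ribosomal proteins and complex I subunits also had medians below 0. Of 80 tested cytosolic ribosomal proteins, 14 (17.5%) were called lower and 8 (10%) higher, with a median of -0.13, where all genes gave 13.3% and 18.8%. RPL28 (-0.63) was lower and RPL37 (0.53) and RPLP1 (0.46) higher, and RPL37 was at 0.07 after window centring and not called (adjusted p = 0.382). Of 36 nuclear complex I subunits, members of the respiratory complex that needs the largest number of mitochondrially made proteins, 14 (38.9%) were called lower and 1 (2.78%) higher, with a median of -0.18. NDUFB11 was lower, with 117 and 113 TPM in shSASH1, against 287 and 303 TPM in shControl (-1.35 ± 0.06, adjusted p = 0.00177), as were NDUFB9 (-0.99), NDUFC2 (-0.66) and NDUFB10 (-0.65). After window centring NDUFB11 was at -0.47 (adjusted p = 0.0217), with NDUFB9 at -0.65, NDUFC2 at -0.59 and NDUFB10 at -0.58, all still called. The comparison between these lists and the MRP genes was not tested. As a group, tested MRP genes were shorter than tested protein-coding genes, with a median exon length of 2539 against 4969 bases, had a median GC content of 47.4% against 48.8%, and were more abundant, with a median level of 55.8 against 24.9 TPM. After a correction for length and GC, 16 of the 19 lower and 5 of the 9 higher members were still called, where 15.9% of all genes were lower and 16.2% higher.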

How the data were processed

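Total RNA was extracted with TRIzol and the NEBNext Ultra kit was used for libraries, per the labels' protocols. The authors deposited TPM per Ensembl gene, and STAR, DESeq2 and hg38 are named without roles or versions in the submitters' processing notes. Counter, gene lengths and strand setting were not given in the sources used here. TPM is relative to each library's total, so abundant transcripts that rise lower the others.

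Libraries were grouped by title into 2 shSASH1 and 2 shControl. Genes averaging 1 TPM or more were tested in R 4.3.3 with limma 3.58.1, on log2(TPM + 1), two-sided, with a variance trend, no block and Benjamini-Hochberg adjustment over 14458 genes. Fold changes on this scale understate those of low genes. An exact permutation test of 2 against 2 cannot go below 0.333. TPM keeps no depth, so reads were rebuilt from TPM times exon length, where 88.5% to 89.2% of values up to 20 reads came within 0.05 of a whole number. Chi-square over degrees of freedom between replicates, from the rebuilt reads, was 27.3 in shSASH1 and 2.33 in shControl, so replicates were kept as separate samples. The libraries summed to 922024 and 910830 TPM in shSASH1 and 924683 and 926711 TPM in shControl. The fit was checked on simulated data made for this comparison (5 sets, 200 of 14458 genes changed). It recovered 41.8% of the genes given a log2 change of 1 and 75.8% of the genes given one of 2. Of its calls, 4.58% were false. Both groups were simulated with the same scatter, whereas the real median SD over genes tested was 0.126 in shSASH1 and 0.0507 in shControl. The SDs were also shuffled over genes, so the relation of scatter to level that the variance trend uses was not kept. The simulated rates may therefore not hold for these data, where 13.3% of genes were called lower and 18.8% higher.

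Members and lists were chosen with earlier results of these data known. Named were SASH1, up to 14 lower and 10 higher called members by size of change, the 3 most abundant and the 2 least changed of each subunit, the MRPS18 genes, MRPS30, members not tested, and up to 4 called genes of each companion list. The result of 1 gene named by this rule is not reported here. Other genes were chosen after their values were seen. The alternatives were no filter, a minimum of 5 TPM, a pseudocount of 0.1, quantile and median-of-ratios scaling, no variance trend, a replicate block, each library left out, a loess correction for length and GC, window centring, voom on rebuilt reads and MRPS30 and MRPS18A counted as large. Leaving out overlapping members was added after seeing the data. Annotation, motif search and plots used matplotlib 3.10.9, scipy 1.17.1, numpy 2.4.6 and pandas 2.3.3 under Python 3.11.15.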

Additional observations from a re-analysis of the deposited data

How the results depend on the processing

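Of the 28 called members, 26 kept their call with a pseudocount of 0.1, 23 with no filter, 28 at a minimum of 5 TPM, 25 with either other scaling, 18 without the variance trend, 21 after length and GC correction, 14 after window centring and 26 with voom. Lower calls among all members numbered 19 and were 12 without the variance trend, and higher calls numbered 9 and were 5 after length and GC correction and 2 after window centring. MRPL genes had 16 lower calls, 10 without the variance trend, and 6 higher calls, 3 with median-of-ratios scaling, 3 with quantile normalization, 3 without the trend and 1 after window centring. MRPS genes had 3 lower calls, 5 with voom, and 3 higher calls, 1 after length and GC correction and 1 after window centring. The MRPL median of -0.20 was -0.26 with median-of-ratios scaling, -0.29 with quantile normalization, -0.25 after length and GC correction and -0.27 with voom. The MRPS median of -0.03 was -0.057 at a minimum of 5 TPM, -0.085 with median-of-ratios scaling, -0.12 with quantile normalization, -0.14 after length and GC correction, -0.19 after window centring, -0.10 with voom and -0.089 with MRPS30 and MRPS18A counted as large. The difference of -0.18, large minus small, was -0.11 after length and GC correction, -0.022 after window centring and -0.10 with those genes reassigned. After window centring MRPL44 was at -0.12, MRPS30 at -0.042 and MRPL37 at -0.12, each reversed. Median-of-ratios scaling placed the median of all genes at -0.00 and quantile normalization at -0.02, against 0.06 here. The cause of these differences was not tested.

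Leaving out each library in turn gave 0 to 33 lower and 0 to 12 higher members, 0 to 24 lower and 0 to 8 higher MRPL genes, and 0 to 9 lower and 0 to 5 higher MRPS genes. The zeros are those without either shControl library, where limma called 0 of 14458 genes and 10 or 13 members were lower and 8 or 6 higher at an unadjusted p under 0.05. The lone library is there assumed to vary like the shSASH1 pair. Where a shSASH1 library is left out, the lone one is assumed to vary like the tighter shControl pair. The share of all genes called in those fits is not given, so their member counts are not read as a result about the members. The MRPL median ran from -0.24 to -0.18, the MRPS median from -0.079 to -0.028 and their difference from -0.19 to -0.12. The SASH1 change was -1.54 (adjusted p = 0.106) without the first and -1.73 (adjusted p = 0.104) without the second shControl library.

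The labels do not say whether replicate numbers pair the libraries. The correlation of same-numbered deviations was -0.0322 over 14458 genes and -0.137 over the members, which cannot settle it. With a replicate block, 15 members were called lower and 7 higher, 13 and 4 of them MRPL genes and 2 and 3 MRPS genes, and 22 of the 28 calls were kept. The share of all genes called with the block is not given. Depth limits MRPS28, MRPS24, MRPL46, MRPS18C and MRPL12, which rest on fewer than 100 rebuilt reads a library.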
